A study of Mus musculus with 4 samples.

Results

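Tead1, Tead2, Tead3 and Tead4 encode the TEA domain transcription factors, and Yap1 and Wwtr1 (whose protein is also called Taz) encode the coactivators that bind them. Pax7 occupancy around these 6 genes was read from a list of ChIP-seq peaks. The peaks were those of the deposited list whose summit lay from 100 kb before the start to 100 kb after the end of a gene in the GENCODE vM1 annotation of NCBIM37 (mm9). This rule uses position alone and found 25 of the 20579 peaks in the list. All 6 genes had at least 1 peak: Wwtr1 had 9, Tead1 had 6, Tead3, Tead4 and Yap1 had 3 each, and Tead2 had 1.

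Tead proteins bind DNA but activate transcription poorly on their own. Yap1 and Wwtr1 carry no DNA-binding domain and are held in the cytoplasm when the kinases of the Hippo pathway phosphorylate them; unphosphorylated, they enter the nucleus and join Tead proteins on DNA. In muscle, the sequence bound by Tead proteins is known as the MCAT element, and Yap1 and Tead factors are known for their part in the growth of satellite cells and in the expression of muscle genes.

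The cells were differentiating mouse ES cells (iPax7) with a Pax7 transgene that doxycycline (dox) switches on. All 4 libraries came from 1 state of these cells: dox at 1 µg/ml was present for 6 days, from day 3, PDGFRα+FLK1- cells were sorted on day 5 and expanded with dox and 10 ng/ml of basic FGF, and the harvest was on day 9 of serum differentiation. The authors merged the 2 Pax7 ChIP libraries, and likewise the 2 of input, before calling peaks, so that a peak has 1 value and no replicate error. Pax7 was induced from a transgene, no culture without dox was analysed here, and a peak list cannot check the identity of the cells. The depth behind a single peak is not in the list.

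The binding sequences found at these peaks are shown first. Each line gives the 101 bases centred on a summit, on the plus strand of mm9. Capitals mark matches to a Pax7 recognition sequence or to the Tead motif GGAATG (the core of the MCAT element, read on either strand). The Pax7 sequences searched were the paired-box core GTCACG, the paired box joined to a homeobox site (ATTAGTCA followed by C or T), and a homeodomain dimer, in which TAAT is followed by any 3 bases and its reverse complement. Dimers with another spacing were not searched, so a window without a match can still hold one. The joined site with C can overlap the core, with which it shares GTCAC. These 5 windows were all those near the 6 genes that held a match to any of them:
Tead1, 10.0-fold peak, chr7:120051872-120051972: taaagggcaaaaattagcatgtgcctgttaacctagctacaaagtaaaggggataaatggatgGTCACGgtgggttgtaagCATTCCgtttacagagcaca
Tead3, 2.69-fold peak, chr17:28505487-28505587: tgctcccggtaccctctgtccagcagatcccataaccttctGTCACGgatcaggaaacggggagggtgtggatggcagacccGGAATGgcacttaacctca
Wwtr1, 8.50-fold peak, chr3:57349013-57349113: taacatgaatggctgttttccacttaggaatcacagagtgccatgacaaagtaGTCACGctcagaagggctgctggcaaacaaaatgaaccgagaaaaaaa
Wwtr1, 4.23-fold peak, chr3:57350798-57350898: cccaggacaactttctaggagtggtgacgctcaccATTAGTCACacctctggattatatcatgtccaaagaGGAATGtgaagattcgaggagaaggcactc
Wwtr1, 6.96-fold peak, chr3:57378148-57378248: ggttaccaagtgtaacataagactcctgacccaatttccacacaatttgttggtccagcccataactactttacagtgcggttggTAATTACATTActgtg

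The paired-box core stood in the windows of the strongest Tead1 peak, the strongest Wwtr1 peak and the weakest Tead3 peak, 15.5, 5.5 and 6.5 bp from their summits. The joined site was found in the 4.23-fold Wwtr1 peak, 11.0 bp from the summit, and the homeodomain dimer in the 6.96-fold Wwtr1 peak, 40.0 bp from the summit. The Tead motif was present in 3 windows, and each of the 3 also held a Pax7 sequence. The centres of the Pax7 and Tead matches were 18.0 bp apart at Tead1, 41.0 bp apart at Tead3 and 34.5 bp apart at Wwtr1. A match is a description of the letters and not of a bound site.

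Fold enrichment is the authors' ratio of ChIP reads to the local background at the summit. Over the 25 peaks it ranged from 2.69 to 10.0 with a median of 5.25, against 1.60 to 28.0 with a median of 5.22 over all peaks. The middle of the 2 distributions was therefore nearly the same. Of the 25, 17 were at or above 5-fold (68.0%, 95% Wilson interval 48.4% to 82.8%), against 54.9% of all peaks, a share inside that interval. Only the strongest Tead1 peak reached 10-fold (4.00%), against 6.99% of all peaks. The −log10 q of the 25 ran from 2.88 to 43.9 with a median of 10.7, and their width from 174 to 471 bp.

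**Figure D1:**
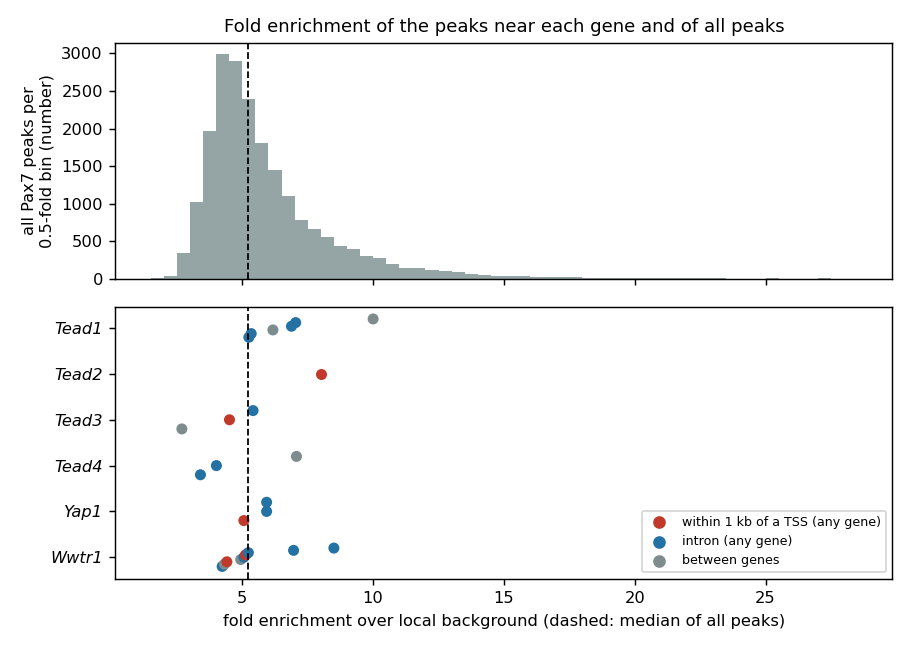
Top, the number of Pax7 peaks in each 0.5-fold bin of fold enrichment, over all peaks. Bottom, the fold enrichment of each of the 25 peaks near the 6 genes (1 point = 1 peak, moved slightly up or down for display and coloured by the place of its summit); the dashed line is the median of all peaks, 5.22, and every Tead1 peak lies at or above 5.25.

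For scale, 75.2% of the 22350 protein-coding genes had at least 1 Pax7 peak from 100 kb before to 100 kb after the gene, and 61.3% had at least 1 of 5-fold or more. All 6 genes met both criteria, which with such common events says little about these genes. A Pax7 summit within 1 kb of a protein-coding transcript start of the gene itself was present for 13.2% of protein-coding genes and for 1 of the 6, Wwtr1. The median number of peaks was 3 per gene for the 6 and 2 for all protein-coding genes. Longer genes have longer windows, and per Mb of window the medians were 12.3 and 9.16 peaks.

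**Figure D2:**
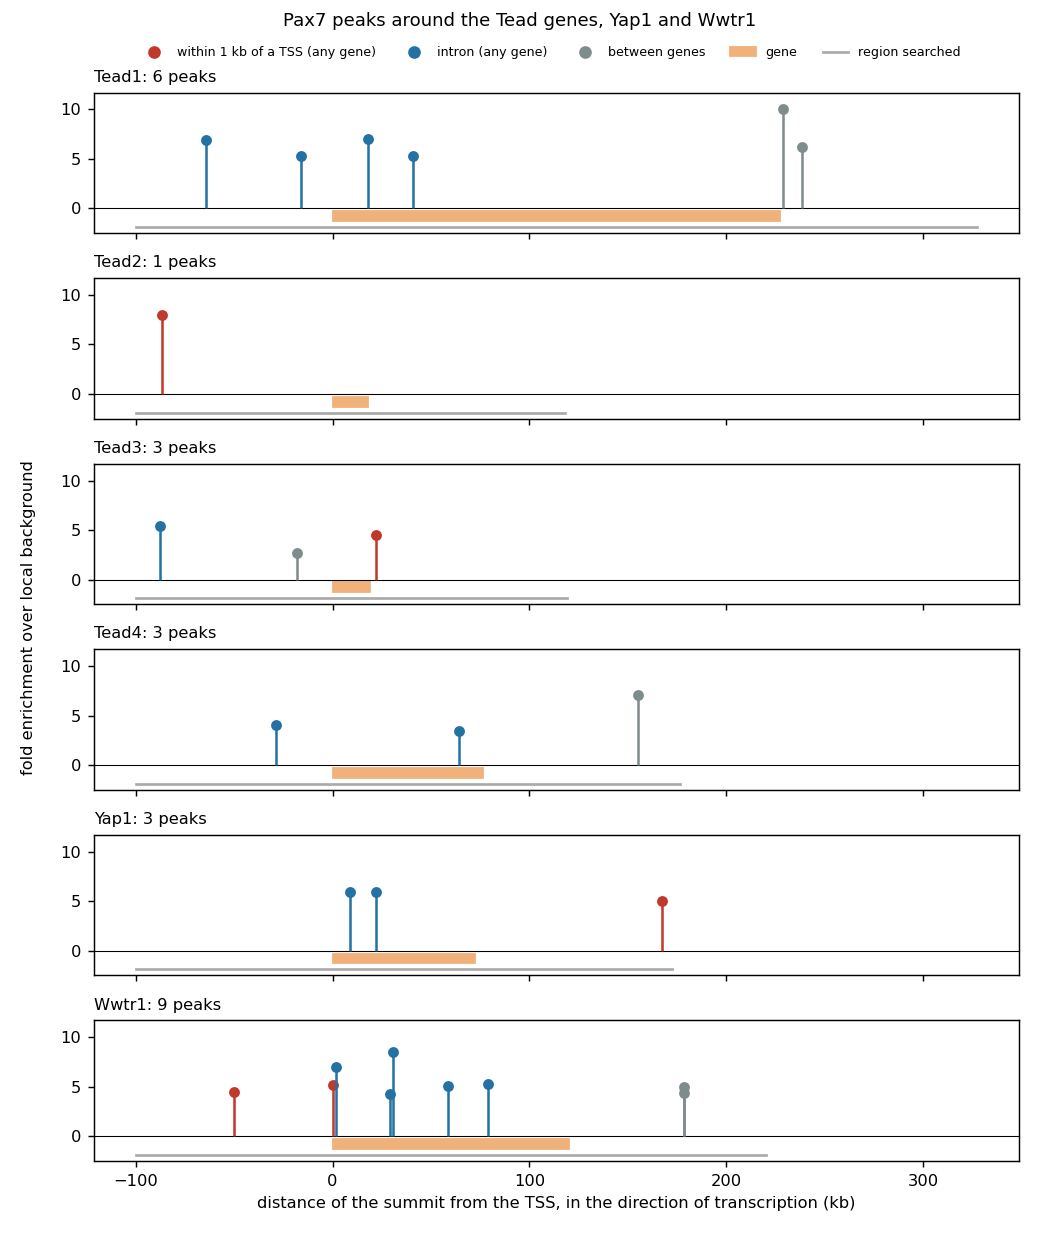
Fold enrichment of each Pax7 peak (vertical axis) against the distance of its summit from the transcript start in kb, with transcription running to the right, in 1 panel per gene. Orange bars are the genes and grey lines the regions searched; the peaks of Wwtr1 stand mainly inside the gene, those of Tead1 on both sides of a stretch of 188 kb without a peak, and no peak lies inside Tead2 or Tead3.

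Tead1 encodes the Tead factor that is widely expressed in muscle. The gene (ENSMUSG00000055320) runs over 227 kb of the plus strand of chromosome 7 (119822832 to 120050319). All 6 of its peaks were at or above 5-fold, with a median of 6.52, and for all 6 the nearest coding transcript start was that of Tead1. The strongest (120051813 to 120052098) was 10.0-fold, with a −log10 q of 43.9. It lay between genes, 1.60 kb past the end of the gene and 5448 bp from its nearest annotated transcript start, and exceeded 93.0% of all peaks in fold enrichment. Its window is the first of those shown above. A further peak, 6.17-fold, followed 11.0 kb past the end of the gene (120061176 to 120061617). Both of the peaks inside Tead1 were in its first intron. One was 18.1 kb from the transcript start (119840723 to 119841088), at 7.04-fold with a −log10 q of 27.5. The other was 40.8 kb from it (119863595 to 119863785), at 5.34-fold. From there to the peak past the end of the gene, the list held no summit over 188 kb, in which the annotation places further transcript starts of Tead1. Upstream, the remaining pair lay in introns of the lincRNA 2310014F06Rik. They were 64.1 kb (119758608 to 119758886, 6.88-fold) and 15.8 kb (119806923 to 119807142, 5.25-fold) before the transcript start. In number of peaks Tead1 exceeded 87.8% of protein-coding genes, and with 14.0 peaks per Mb it exceeded 67.1%.

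Tead2, the Tead gene best known from early embryos and neural progenitors, is short (ENSMUSG00000030796, 17.9 kb, chromosome 7, 52471123 to 52489005, plus strand) and lies among 12 other coding genes whose bodies reach into its window. Its only peak was 8.00-fold with a −log10 q of 24.9 (52384243 to 52384524), above 84.6% of all peaks. It lay 86.7 kb upstream of Tead2 and 286 bp from the transcript start of Rpl13a, a ribosomal protein gene, inside that gene. None of the Pax7 or Tead sequences was found in its window, which is given because it holds the only summit counted for Tead2 and reads, on the plus strand:
Tead2, 8.00-fold peak, chr7:52384354-52384454: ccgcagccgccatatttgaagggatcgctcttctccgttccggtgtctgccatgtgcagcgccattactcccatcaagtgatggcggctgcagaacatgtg

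Tead3 (ENSMUSG00000002249, 19.1 kb, chromosome 17, 28468616 to 28487750, minus strand) had 3 peaks, none of them inside the gene. The highest (28575261 to 28575464) was 5.41-fold, with a −log10 q of 10.7, and lay in an intron of Fkbp5, a cochaperone of steroid receptors, 87.6 kb upstream of Tead3. The next, 4.51-fold (28465368 to 28465552), was 26 bp from the transcript start of the ribosomal protein gene Rpl10a and 3.17 kb past the end of Tead3. The third lay between genes, 17.8 kb upstream of Tead3 and 3410 bp from the transcript start of Tulp1 (28505435 to 28505634). At 2.69-fold with a −log10 q of 2.88 it exceeded 0.432% of all peaks, so that it was among the weakest of the list, although its window holds both the paired-box core and the Tead motif.

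Tead4, a Tead factor induced with muscle differentiation, spans 76.5 kb of the minus strand of chromosome 6 (ENSMUSG00000030353, 128174306 to 128250841). The peak inside it, in intron 9, was weak: 3.40-fold with a −log10 q of 5.27 (128186556 to 128186893), above 5.29% of all peaks. A peak of 4.01-fold lay 28.6 kb upstream of Tead4 in an intron of Tulp3 (128279351 to 128279524). The strongest was 7.07-fold with a −log10 q of 19.5 (128095654 to 128095957), 78.5 kb past the end of Tead4 and 2214 bp from the nearest coding transcript start, that of the tetraspanin gene Tspan9. For none of the 3 was Tead4 the gene with the nearest coding transcript start, and the same held for the peaks of Tead2 and Tead3.

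Yap1 (ENSMUSG00000053110, 72.6 kb, chromosome 9, 7931999 to 8004596, minus strand) encodes the coactivator after which the Hippo pathway's output is usually named. It had a pair of peaks inside its second intron, 8.81 kb (7995687 to 7995920) and 22.0 kb (7982478 to 7982711) from the transcript start. Each was 5.93-fold with a −log10 q of 13.1, above 64.0% of all peaks. The third peak, 5.06-fold (7836970 to 7837305), was 94.9 kb past the end of Yap1 and 12 bp from the transcript start of the coding gene C330006D17Rik. Yap1 had no Pax7 summit within 1 kb of its own transcript starts, and its windows held none of the Pax7 or Tead sequences searched.

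Wwtr1 had the most peaks of the 6 in windows of 100 kb on each side; with 200 kb on each side Tead4 had 10 and Wwtr1 9, and of peaks at or above 5-fold Tead1 had 6 and Wwtr1 5. It spans 120 kb of the minus strand of chromosome 3 (ENSMUSG00000027803, 57259571 to 57379832), and 6 of its 9 peaks were inside it. Its count exceeded that of 96.9% of protein-coding genes and its 28.1 peaks per Mb exceeded 93.5%. The highest enrichment was 8.50-fold (57348904 to 57349337, −log10 q of 27.3), at a summit 30.8 kb from the transcript start in intron 2, above 87.4% of all peaks. The 4.23-fold peak with the joined site (57350747 to 57350929) lay in the same intron, with its summit 1.78 kb from that of the strongest. Both thus held a sequence of the paired box within 11.0 bp of the summit.

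At the 5′ end of Wwtr1 there were also 2 peaks. One, 5.12-fold with a −log10 q of 10.4 (57379691 to 57380161), had its summit 23 bp inside the transcript, in the first exon, and was the only summit of the 25 within 1 kb of a transcript start of one of the 6 genes. At 471 bp it was the widest of the 25. The other, 6.96-fold with a −log10 q of 25.8 (57378027 to 57378371), was 1.63 kb from the start in intron 2. The other peaks in the body of the gene were 5.06-fold in intron 2 (57321113 to 57321334) and 5.23-fold in intron 3 (57300455 to 57300757). The remaining 3, outside the gene, ranged from 4.32-fold to 4.94-fold: one lay 50.0 kb upstream and 111 bp from the start of the noncoding transcript Gm16743, and a pair with summits 0.452 kb apart lay 58.1 and 58.6 kb past the end of the gene.

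Since a peak stood at the start of Wwtr1, the 150 bases before its most upstream coding transcript start are shown, on the minus strand in the direction of transcription. They held no Pax7 sequence. They held the Tead motif, in capitals, at bases 136 to 131 before the start, as did 6.66% of windows of this length before the starts of 22342 protein-coding genes. The G+C content was 71.3%, with 14 CG dinucleotides:
Wwtr1 promoter, chr3:57379833-57379982: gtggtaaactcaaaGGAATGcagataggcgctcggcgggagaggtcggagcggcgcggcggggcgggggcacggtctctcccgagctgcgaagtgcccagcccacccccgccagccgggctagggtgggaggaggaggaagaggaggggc

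For comparison with the Wwtr1 and Tead1 windows, those of the strongest peaks of Tead3, Tead4 and Yap1 are shown on the plus strand. At Yap1 a pair of peaks was tied at 5.93-fold, and the one 22.0 kb from the start was taken. These windows held none of the Pax7 or Tead sequences:
Tead3, 5.41-fold peak, chr17:28575344-28575444: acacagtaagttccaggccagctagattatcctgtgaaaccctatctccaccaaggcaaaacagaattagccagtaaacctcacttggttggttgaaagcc
Tead4, 7.07-fold peak, chr6:128095745-128095845: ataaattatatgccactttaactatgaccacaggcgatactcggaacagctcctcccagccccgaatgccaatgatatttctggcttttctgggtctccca
Yap1, 5.93-fold peak, chr9:7982546-7982646: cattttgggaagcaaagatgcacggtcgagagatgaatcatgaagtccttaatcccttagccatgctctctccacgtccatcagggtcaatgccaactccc

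Taken over the 25 peaks, 14 summits were in introns (56.0%, 95% Wilson interval 37.1% to 73.3%), 10 of them in an intron of one of the 6 genes. A further 6 lay between genes (24.0%, interval 11.5% to 43.4%) and 5 within 1 kb of a transcript start (20.0%, interval 8.86% to 39.1%). Of all peaks 42.1% were in introns, 39.0% between genes and 16.3% within 1 kb of a start, each inside the corresponding interval. None of the 25 was in an exon away from a start, which allows a share of up to 12.0% if 3 counts are taken as the limit of a count of 0 (the Wilson upper bound is 13.3%), against 2.55% of all peaks. The nearest coding transcript start was that of the listed gene for 13 of the 25, all of them at Tead1, Yap1 or Wwtr1. For the other 12 it was that of another gene, although the summits in intron 9 of Tead4 and intron 3 of Wwtr1 lay inside the listed gene. Of the 25, 21 also fell within 100 kb of another coding gene. Which gene a peak acts on was not tested here. From its map of promoter contacts (promoter-capture Hi-C), the paper counts Tead1 and Tead4 among the targets of Pax7 enhancers. Those contacts were not analysed here. The summit counted farthest from its gene was the 5.06-fold peak 94.9 kb past Yap1, and the nearest one left out was a 4.35-fold peak 108 kb past Tead2.

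The share of windows with each motif was set beside that of all peaks. For the paired-box core and the Tead motif, windows of equal width 500 bp to either side are also given. The paired-box core was found in 3 of the 25 windows (12.0%, 95% Wilson interval 4.17% to 30.0%) and in 11.1% of all peaks, against 1.28% of the flanking windows of all peaks. The joined site was found in 4.00% and 2.10%, and the homeodomain dimer in 4.00% and 0.991%. At least 1 of the 3 Pax7 sequences was present in 5 of the 25 (20.0%, interval 8.86% to 39.1%), against 13.9% of all peaks. The Tead motif was present in 12.0% of the 25 (interval 4.17% to 30.0%), in 11.0% of all peaks and in 5.33% of their flanks. In the 50 windows flanking the 25 peaks themselves, the Tead motif was in 4 (8.00%) and the paired-box core in 0. The share of the Tead motif at the summits depended on the width of the window. Within 25 bp of the summit it was in 0 of the 25, against 5.71% of all peaks. Within 100 bp it was in 9 of the 25 (36.0%, interval 20.2% to 55.5%), and the 18.8% of all peaks was below that interval. Among the 8 motifs searched at 25, 50 and 100 bp, no other interval left out the share of all peaks. With so many comparisons, 1 such interval cannot be read as an excess. A Pax7 sequence and the Tead motif in the same window occurred in 3 of the 25 (12.0%) and in 1.23% of all peaks. One of the 3 was the 2.69-fold Tead3 peak. This pairing was singled out after these windows had been read, so the 2 shares cannot show an excess. The pairing was in none of the 25 windows narrowed to 25 bp on each side, which held no Tead motif.

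Motifs of other factors of muscle progenitors were as follows. The Runx motif TGTGGT was present in 4 of the 25 (16.0%, interval 6.40% to 34.7%), against 9.73% of all peaks. The AP-1 motif, TGA and TCA with any base between, was present in 2 (8.00%), against 6.82%. The E-box CANNTG, bound by MyoD-type factors, was present in 10 (40.0%, interval 23.4% to 59.3%), against 49.7%. A control sequence, GCACTG, was present in 1 (4.00%), against 6.86%. Within 50 bp of the summit, the share in all peaks was inside the interval of the 25 for each of the 8 motifs taken singly. With 25 windows only large departures could have been seen.

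**Figure D3:**
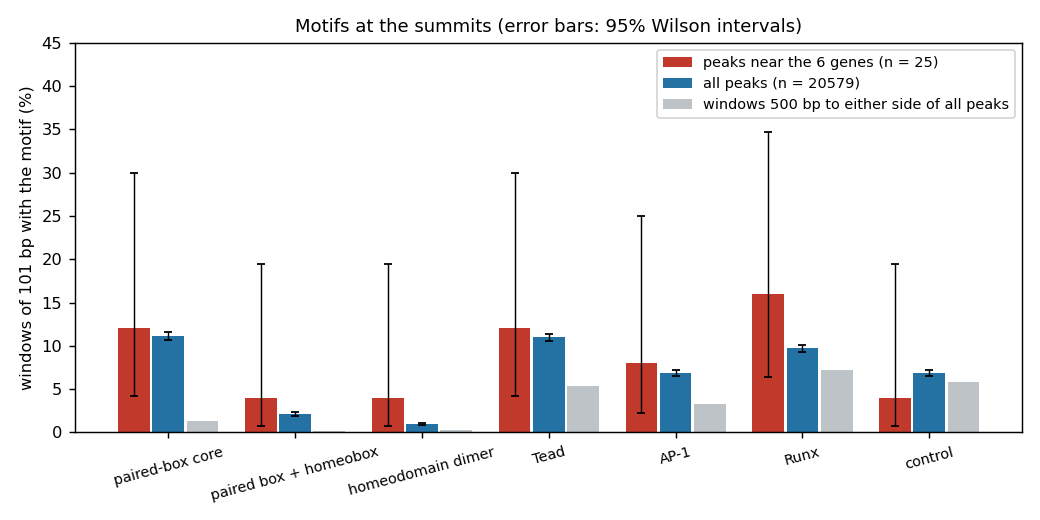
Percent of 101 bp windows that hold each motif on either strand, at the summits of the peaks near the 6 genes, at the summits of all peaks and in windows 500 bp to either side of all peaks. Error bars are 95% Wilson intervals for counting error; those of the 25 peaks span the bars of all peaks for all 7 motifs drawn.

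The other genes of the Hippo pathway were taken from a list of 30, all of which matched the annotation. Of these, 28 had at least 1 Pax7 peak in the same kind of window (111 peaks in all, counted per gene), 23 had 1 of 5-fold or more and 6 had 1 within 1 kb of a start of their own, against 75.2%, 61.3% and 13.2% of all protein-coding genes. The median was 3 peaks per gene and 10.0 peaks per Mb, near the 12.3 per Mb of the 6 genes and the 9.16 per Mb of all genes. All 14 core kinases and scaffolds had a peak. Of the central kinases Stk3, Stk4 and Lats1 had 1 peak each, and Lats2 had 3, equal to the median of the list. The scaffolds Wwc2 and Frmd6 had 9 and 8, the highest of them 10.2-fold and 11.4-fold.

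Of the 8 adhesion and junction regulators 7 had a peak. Amotl2, which binds Yap1 at cell junctions, had 10, of which 2 were at or above 5-fold, with a highest value of 7.52-fold. At least 1 of them was at its own start. All 4 target genes had a peak, with 5 each at Cyr61 and Ankrd1, 3 at Axl and 1 at Ctgf. The Vestigial-like cofactors compete with Yap1 and Wwtr1 for Tead proteins. Vgll4 had 10 peaks, 3 of them at or above 5-fold, with a highest value of 6.90-fold. Vgll3 had 8 and Vgll1 had 0, as did Amot. Both genes without a peak are on the X chromosome. Among all 22350 protein-coding genes 5538 had no peak, and a relation to the chromosome was not tested.

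**Figure D4:**
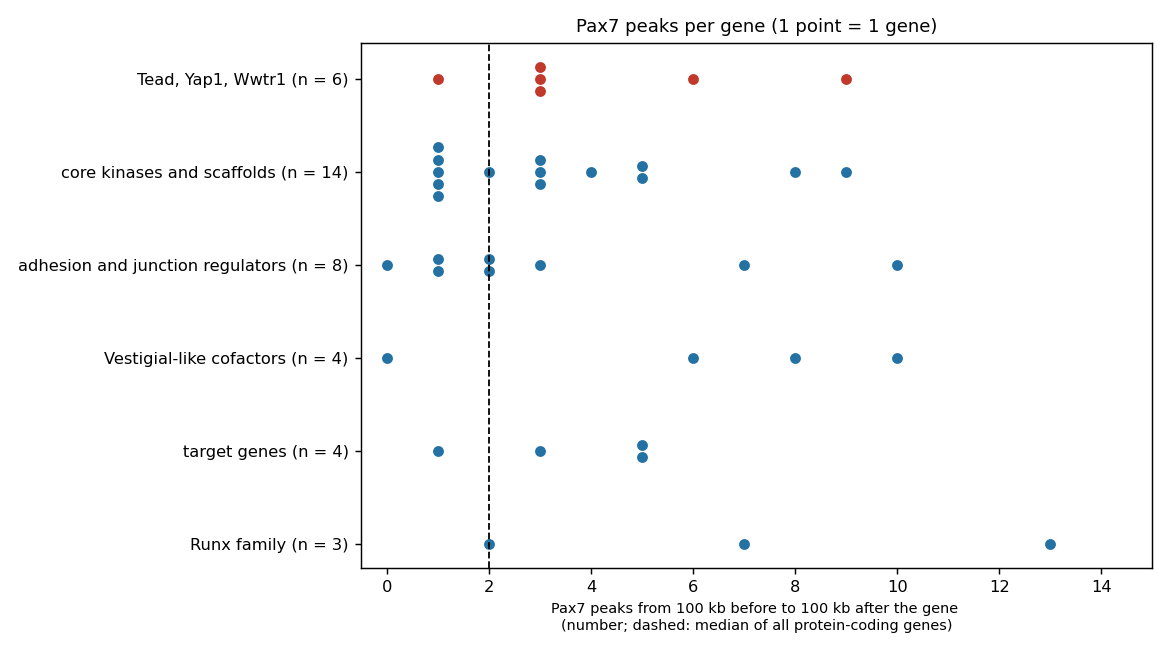
Number of Pax7 peaks from 100 kb before to 100 kb after each gene (horizontal axis), by gene group; 1 point is 1 gene, and the dashed line is the median of all protein-coding genes, 2. The 6 genes lie between 1 and 9 peaks, a range that overlaps that of every other group.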

How the data were processed

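Pax7 ChIP and input were sequenced in 2 libraries each. The authors mapped reads to NCBIM37 (mm9) using bowtie2. Only unique alignments entered, after Picard had taken out duplicates, and MACS2 was run on the merged libraries. The deposited list gives for each peak the fold enrichment, a ratio made by the authors, and −log10 of the q-value (2.07 at the lowest); both describe pooled libraries. The summit is the peak start plus the deposited offset.

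Here, summits were counted around genes of GENCODE vM1, on the same build as the peaks. Where a symbol had 2 coding records (Runx2), the longer was used, and Ajuba is listed there as Jub. Classes were assigned in the order transcript start (within 1 kb), exon, intron, between genes. The motif search covered either strand, from 50 bp before to 50 bp after a summit. Intervals are 95% Wilson intervals and cover counting error only. With 1 pooled list of 1 condition, no test was made. Counting and motif search were tested on simulated data. Each peak was described where a gene had 6 or fewer; otherwise the 5 strongest, those at a start of the gene and those with a motif were named. From the Hippo list, the 5 genes with the most peaks were named; the others were named after their values were seen, as were the windows of the joined site and of the homeodomain dimer. Members, lists and motifs were chosen with earlier results of these data known. Python 3.11.15, numpy 2.4.6, pysam 0.24.0, matplotlib 3.10.9 and samtools 1.23.1 were used.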

Additional observations from a re-analysis of the deposited data

How the results depend on the processing

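The total of 25 peaks stayed within 1.5 times under 6 of 7 alternatives, between 17 (50 kb on each side, or at least 5-fold) and 25 (any overlap with the window), and rose to 42 with 200 kb on each side. Wwtr1 kept the highest count at 50 kb (6) and at 100 kb around the transcript start (7), whereas at 200 kb Tead4 had 10 and Wwtr1 9, and at 5-fold or more Tead1 had 6 and Wwtr1 5; Tead2 had 0 peaks at 50 kb and 6 at 200 kb. The median fold enrichment stayed between 5.14 and 5.29. The paired-box core was found in 12.0% of the windows within 25 bp of the summit (95% Wilson interval 4.17% to 30.0%), against 7.24% of all peaks. Within 100 bp it was found in 24.0% (interval 11.5% to 43.4%), against 14.2% of all peaks. Both shares of all peaks were inside the intervals. The Tead motif depended on the window: it was found in 0% within 25 bp, where 5.71% of all peaks had it, and in 36.0% (95% Wilson interval 20.2% to 55.5%) within 100 bp, where the 18.8% of all peaks was below the interval. Among the 8 motifs searched at 25, 50 and 100 bp, no other interval left out the share of all peaks. The share near a transcript start rose to 44.0% at 5 kb and was 16.0% with coding starts only. The shares of all peaks at these settings are not given here, and the 16.3% of all peaks is for 1 kb from any start. The Hippo list had 68 peaks at 50 kb, 162 at 200 kb and 62 of 5-fold or more. These counts move because the settings admit more or fewer peaks. No paired analysis was possible because the list was called on merged libraries. Per-peak depth and replicate error are unknown, so small differences in fold enrichment between peaks cannot be read.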

Other observations

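The strongest Pax7 peaks around genes of the Hippo pathway were in the windows of 2 Vestigial-like cofactors, which were picked out here after their values were seen. Vgll2, a cofactor expressed in skeletal muscle, had 6 peaks, of which the highest, 16.5-fold, lay 72.3 kb upstream of its transcript start (chromosome 10, 51669809 to 51670152). Vgll3 had 8 peaks, 7 of them at or above 5-fold. The highest, 16.1-fold, lay 139 kb downstream of its start, past the end of the 47.4 kb gene (chromosome 16, 65954711 to 65955085). Both values are above the 10.0-fold of the strongest peak near Tead1. They are the highest of 111 peaks near 30 genes, whereas 25 peaks lie near the 6 genes. Of all peaks 6.99% reached 10-fold.

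Counted in the same way, Runx1, Runx2 and Runx3 had 13, 7 and 2 peaks. Medians per Mb were 13.5 for the Runx genes and 12.3 for the Tead genes, Yap1 and Wwtr1. The difference between these families was not tested. Tead1, Tead4 and Wwtr1 are on the study's list of "Primed" genes, of which 365 matched the annotation of 22350 protein-coding genes. The median of the Primed genes was 5 peaks. It was also 5 for the study's Active I list, 4 for its Active II and Active III lists, and 2 for all protein-coding genes. The 4 lists hold genes chosen by the authors as targets of Pax7-bound enhancers, so their counts are not independent of these peaks.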
